A study of Mus musculus with 6 samples.

Results

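A set of 10 genes of lysosomal protein breakdown was described across all 6 libraries of the series. They were the cysteine cathepsins Ctsb, Ctsc, Ctsh, Ctsl, Ctss and Ctsz, the aspartic cathepsin Ctsd, the asparaginyl endopeptidase legumain (Lgmn) and the protease inhibitors cystatin C (Cst3) and cystatin B (Cstb). The genes were taken by symbol, after matching Ensembl gene identifiers to mouse symbols, and all 10 were found among the 43274 genes of the deposited tables. They had been chosen with the difference between the genotypes already known, and that difference is therefore given for them as a description, without a p-value. For the description, 5 genes (Ctsb, Ctsd, Ctsl, Cst3 and Cstb) were grouped as ubiquitous, 4 (Ctsc, Ctsh, Ctsz and Lgmn) as broadly expressed but high in myeloid cells, and Ctss alone as myeloid-restricted.

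The cells were CD34-positive bulge stem cells (SCs) with high α6 integrin, taken by FACS from the epidermis of mice at postnatal day 21, a population that maintains the hair follicle. The 3 control libraries came from mice labelled ILK +/-, that is K5-Cre mice with a floxed and a wild-type Ilk allele (fl/+). The 3 ILK-K5 libraries came from mice labelled ILK -/-, K5-Cre mice homozygous for the floxed allele (fl/fl). Cre was thus present in both groups, and the keratin 5 promoter restricts deletion to the epidermal lineage, so that blood-derived cells keep the gene. The controls were littermates, but the labels do not say whether a library held 1 animal or several, and the p-values measure the spread between these libraries.

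Cathepsins are made as inactive precursors, carried to the lysosome by mannose 6-phosphate receptors and activated at acid pH. Cystatins bind cysteine cathepsins that escape this compartment, Cstb mainly in the cytosol and Cst3 outside the cell. In skin, loss of Ctsl causes periodic hair loss and epidermal thickening in mice, and Ctss is best known from antigen-presenting cells, where it trims the invariant chain of MHC class II.

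The depth on genes ranged from 8228019 to 11969072 reads a library, and a single read was worth between 0.726 and 1.52 normalized counts. Ilk, whose exons are shared with other genes over 89.7% of their bases, had 10.6, 16.7 and 38.5 normalized counts in the controls and 14.8, 30.9 and 29.2 in ILK-K5, and its count does not serve as a check of the genotype. Of the genes used for the sort, Cd34 fell (log2 fold change -1.90, standard error 0.37, limma adjusted p = 0.0239), a call lost when library 1 or 3 of either genotype was left out (adjusted p up to 0.0877), and Itga6 was not called (0.36, adjusted p = 0.699). Summed over 4 markers of basal keratinocytes, the level was 40921 to 86104 in control and 41356 to 62386 in ILK-K5 libraries, and over 6 bulge stem cell markers, Cd34 included, it was 39453 to 107175 and 16918 to 46459, with Cd34 the only gene of these 2 lists that was called. Of 4 differentiation markers, 1 was called lower (1113 to 9050 against 2209 to 3643).

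The windows from 250 bases before to 50 bases after the gene start (RefSeq, GRCm38.p6) were available for 7 members, Lgmn with 2 windows. Ctsb, Ctsh and Cstb are named only. The windows were searched on both strands for GAGGAA, the core of the site bound by the myeloid factor Spi1 (PU.1), which reads TTCCTC on the other strand, and for the palindrome CACGTG, the core of the site bound by the MiT/TFE factors that drive lysosomal genes. The motifs do not overlap in these windows. GAGGAA was found in 3 of the 8 windows (Ctss, Ctsc and Cst3), against 28.3% of all 32851 windows, and CACGTG in 3 of the 8 (Ctsd, Ctsl and the downstream window of Lgmn), against 7.15%. The windows of Ctss and Ctsc are shown because these genes had the largest differences, and that of Ctsd because it holds CACGTG more than once and its counts overlapped between the genotypes. Capitals mark GAGGAA or TTCCTC in the first 2 and CACGTG in Ctsd.
Ctss, chr3:95526536-95526835, plus strand: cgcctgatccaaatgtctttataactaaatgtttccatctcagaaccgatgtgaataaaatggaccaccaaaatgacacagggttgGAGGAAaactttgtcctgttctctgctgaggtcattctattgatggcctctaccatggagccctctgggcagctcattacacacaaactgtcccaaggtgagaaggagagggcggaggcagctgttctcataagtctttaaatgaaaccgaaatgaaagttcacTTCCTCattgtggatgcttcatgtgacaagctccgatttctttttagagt
Ctsc, chr7:88277835-88278134, plus strand: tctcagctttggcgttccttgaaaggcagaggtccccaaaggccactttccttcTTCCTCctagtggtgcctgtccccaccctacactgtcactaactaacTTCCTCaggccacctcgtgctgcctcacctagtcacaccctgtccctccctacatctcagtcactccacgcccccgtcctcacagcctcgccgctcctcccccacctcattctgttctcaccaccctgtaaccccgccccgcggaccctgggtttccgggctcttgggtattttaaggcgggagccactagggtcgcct
Ctsd, chr7:142387778-142388077, minus strand: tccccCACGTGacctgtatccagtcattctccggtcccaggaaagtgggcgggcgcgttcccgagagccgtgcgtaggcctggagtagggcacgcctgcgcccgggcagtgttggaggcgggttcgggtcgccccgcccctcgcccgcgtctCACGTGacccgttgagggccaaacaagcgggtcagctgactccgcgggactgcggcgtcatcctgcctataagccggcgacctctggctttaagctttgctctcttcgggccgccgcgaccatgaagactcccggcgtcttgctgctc
Counted from 1 at the 5′ end, the motif began at positions 87 and 251 in Ctss, the latter at the gene start, at 55 and 102 in Ctsc, and CACGTG began at 6 and 153 in Ctsd. A match describes the letters of the window and does not show a bound site.

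Ctss separated the genotypes most widely. This cysteine protease is encoded at 95526786 to 95556403 of chromosome 3, plus strand (GRCm38). Control libraries 1, 2 and 3 held 2.89, 54.7 and 22.5 normalized counts, which rest on only 3, 36 and 31 reads. In the ILK-K5 libraries they were 3439, 6658 and 4699.9. Every ILK-K5 library therefore lay far above every control library, and the lowest ILK-K5 value was that of library 1. The log2 fold change was 8.11 (standard error 0.81), and the ratio of the means was 185. The size of the rise depended on the low control counts. It was 7.04 on the log2 scale without control library 1 and 8.96 without control library 2.

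The genes grouped as broad but high in myeloid cells all separated the genotypes, with every ILK-K5 value above the controls. Ctsc, the dipeptidyl peptidase that activates granule serine proteases, is encoded at 88278085 to 88310888 of chromosome 7. It had 38.6, 88.2 and 115 normalized counts in the controls and 1360.5, 1046 and 958.5 in ILK-K5, with the highest value in ILK-K5 library 1. The log2 fold change was 3.90 (standard error 0.41), second in size after Ctss, and the ratio of means was 13.9.
Ctsz, a carboxypeptidase also called cathepsin X, lies on chromosome 2 from 174427493 to 174439039 and had 104, 187 and 168 normalized counts in the controls against 699, 993 and 729.6 in ILK-K5. Ctsh, an aminopeptidase on chromosome 9 from 90054152 to 90076089, had 143, 331 and 293 against 862, 1113 and 944. Lgmn, which cleaves after asparagine and processes other cathepsins, lies on chromosome 12 from 102394084 to 102439813 and had 235, 166 and 129.9 against 661, 711 and 499. In these 3 genes the groups stood apart without overlap, and the lowest ILK-K5 value exceeded the highest control value. Their log2 fold changes were 2.42 (standard error 0.32) for Ctsz, 2.004 (0.35) for Ctsh and 1.84 (0.31) for Lgmn.

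The ubiquitous proteases behaved differently from each other. Ctsl lies on the minus strand of chromosome 13 from 64359337 to 64370890 and had 3733, 8269 and 4266 normalized counts in the controls and 5186, 5618 and 4310.3 in ILK-K5. All ILK-K5 values fell inside the range of the controls, and the log2 fold change was -0.02 (standard error 0.35). Its exons are shared over 26.8% of their bases with Gm47123 and Gm49230, which the counted table does not list.
Ctsd, the main aspartic protease of the lysosome, lies on the minus strand of chromosome 7 from 142375911 to 142388038. It was the most uneven gene of the group, with 488, 826 and 4150.5 normalized counts in the controls and 501, 2340.0 and 1188 in ILK-K5. The genotypes overlapped, and the log2 fold change of -0.09 (standard error 0.78) was 0.81 without control library 3 and -0.73 without control library 1. Of its exon bases, 34.4% are shared with the overlapping gene Gm49369, which is not listed in the table.
Ctsb, a cysteine protease on chromosome 14 from 63122462 to 63145923, was the most even gene. It had 2704, 2579 and 2186 normalized counts in the controls and 3980.1, 4233 and 4241 in ILK-K5, so that the groups did not overlap. The difference was small (log2 fold change 0.74, standard error 0.24) at a ratio of means of 1.67. Its exons overlap those of Fdft1 on the opposite strand over 12.8% of their bases, and since neither the strand nor the handling of shared reads is stated, reads of the overlap cannot be assigned to either gene.

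The inhibitors also differed. Cst3, on chromosome 2 from 148871722 to 148875692, had 1034, 2933 and 2878.5 normalized counts in the controls and 1658, 2716 and 2394 in ILK-K5. The ILK-K5 values lay within the control range, and the log2 fold change was 0.10 (standard error 0.42). Cstb, on chromosome 10 from 78425669 to 78427622, had 317, 669 and 665 against 1124, 1806 and 1173. Each ILK-K5 library exceeded each control library, and the log2 fold change was 1.36 (standard error 0.36) at a ratio of means of 2.48.

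**Figure D1:**
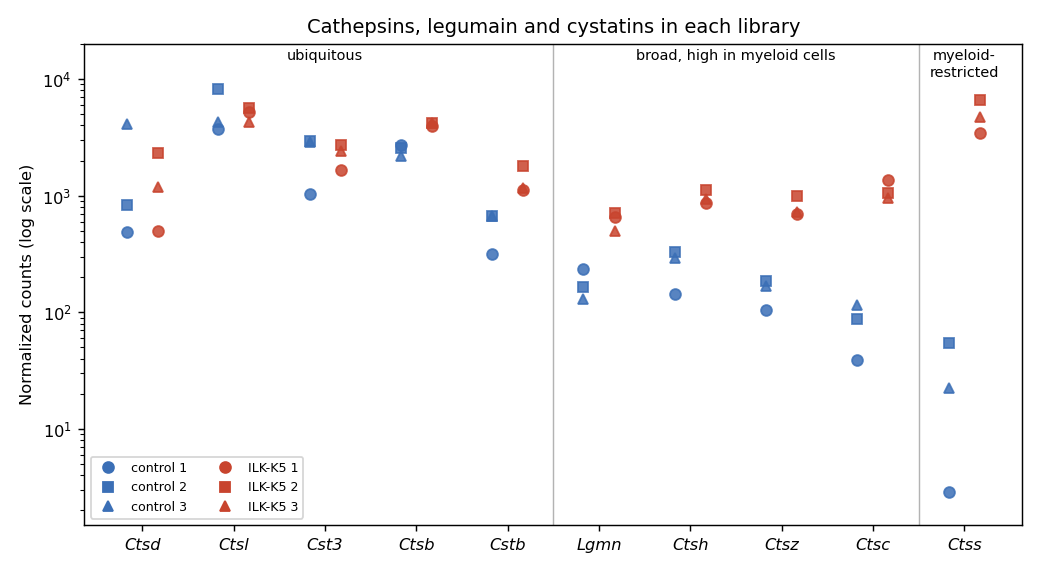
Normalized counts (log scale) of the 10 genes in each of the 3 control (blue) and 3 ILK-K5 (red) libraries, with the marker shape giving the replicate number and the genes grouped by class. The genotypes overlap for Ctsd, Ctsl and Cst3 and stand apart for the other 7 genes, most widely for Ctss, where the controls lie between 2.89 and 54.7 and the ILK-K5 libraries between 3439 and 6658.

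Set side by side, the classes, 1 of which holds only Ctss, differed in their log2 fold changes. The log2 fold change was -0.09 to 1.36 in the 5 ubiquitous genes (median 0.10), 1.84 to 3.90 in the 4 broad genes (median 2.21) and 8.11 in Ctss, and the median over all 16368 genes tested was 0.005. All ILK-K5 libraries lay above all controls for 7 of the 10 members, which held for 10.9% of all genes tested, and below them for none, beside 6.95% of all genes. At a limma adjusted p-value of at most 0.05, 2.93% of all genes tested were called higher in ILK-K5 and 3.53% in either direction, and the calls took in 5 members (6 with DESeq2 or with a term for replicate 1 against replicates 2 and 3). As the members were chosen with this contrast known, these counts and the order of the classes test nothing about them. Nothing is read from either.

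**Figure D2:**
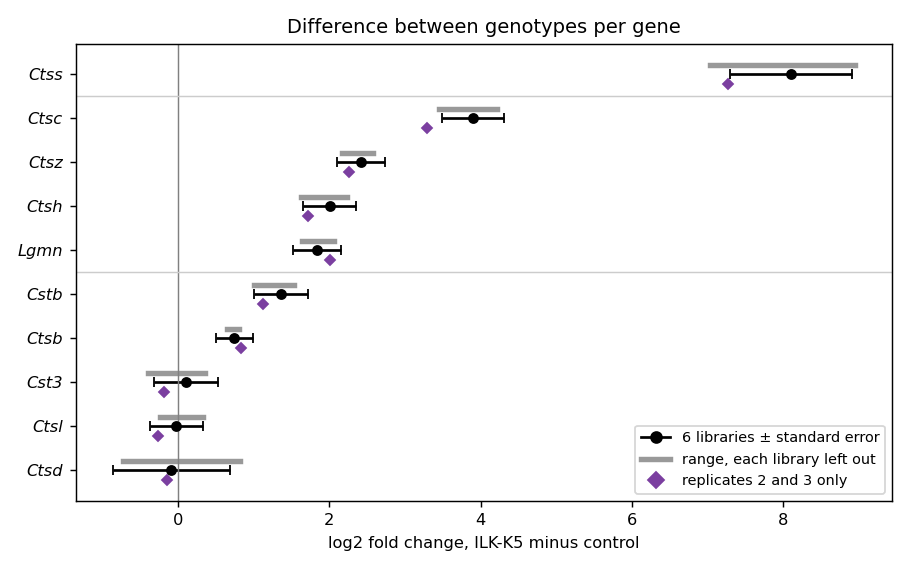
Log2 fold change (ILK-K5 minus control) of each gene with its standard error (black), the range when each library was left out in turn (grey) and the value from replicates 2 and 3 alone (purple). The 4 broad genes and Ctss lie to the right of all ubiquitous genes, and the ranges of Ctsd, Ctsl and Cst3 cross 0.

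Levels of different genes were compared as FPKM, which scales the normalized counts by gene length. In control bulge SCs the order was Ctsl (282 ± 129 FPKM, SD, n = 3 libraries), Cst3 (185 ± 87.6), Cstb (94.3 ± 34.6), Ctsd (74.1 ± 82.4) and Ctsb (53.9 ± 5.85). The ranges of neighbours in this order overlapped, so that their sequence is not resolved. Below Ctsb came a gap without overlap to Ctsz (10.9 ± 3.08 FPKM), Lgmn (7.81 ± 2.37), Ctsh (5.83 ± 2.27), Ctss (2.02 ± 1.98) and Ctsc (1.43 ± 0.688), again with overlap between neighbours. The control cells thus held the ubiquitous genes at a level above that of every other member.
In ILK-K5 bulge SCs Ctss had the highest mean with 372 ± 122 FPKM (SD, n = 3), ahead of Ctsl (262 ± 34.7), Cstb (234 ± 65.2) and Cst3 (183 ± 44.0), and each of these overlapped its neighbour in range. Ctsb (89.8 ± 3.21) stood apart from Cst3 above and from Ctsz (57.4 ± 11.5) beneath. Ctsd (54.7 ± 37.8), Lgmn (27.5 ± 4.90), Ctsh (22.2 ± 2.92) and Ctsc (19.8 ± 3.74) followed. By the means, Ctsc came last in both genotypes and Ctss ninth in the controls and first in ILK-K5, but the order at both ends was not the same in every library.
In absolute terms, the mean rose by 370.4 FPKM for Ctss, by 139.9 for Cstb, by 46.5 for Ctsz and by 36.0 for Ctsb, and by 16.3 to 19.7 for Ctsh, Ctsc and Lgmn.

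The make-up of the set shifted accordingly. The summed level of the 10 genes was 433, 906 and 813 FPKM in the controls and 1085, 1657 and 1226 in ILK-K5. Ctss made up 0.0505%, 0.456% and 0.209% of this sum in the controls and 23.9%, 30.3% and 28.9% in ILK-K5. The ubiquitous genes went from 95.9% ± 0.866 to 62.5% ± 2.03 (SD, n = 3) and the broad genes from 3.85% ± 1.02 to 9.76% ± 1.35. These shares are fixed in part by the choice of the genes and were not tested.
The 6 cysteine cathepsins together held 264, 513 and 292 FPKM in the controls and 709, 1001 and 761 in ILK-K5, against 138, 352 and 347 and then 327, 529 and 395 for Cst3 and Cstb together. The cathepsin sum divided by the sum of Cst3 and Cstb was 1.91, 1.46 and 0.840 in the controls and 2.17, 1.89 and 1.93 in ILK-K5. The genotypes overlapped. Without Ctss the same ratio was 1.91, 1.44 and 0.835 against 1.38, 0.942 and 1.03, again with overlap. Both ratios leave out the other cystatins and do not give the balance of proteases and all their inhibitors. Mean FPKM of Stfa3 was 10.5 in the controls and 386 in ILK-K5, of Stfa1 3.42 and 114, and of Stfa2 0 and 21.9. Cst6 differed little by its means (3.67 and 3.56). Protein and enzyme activity were not measured.

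**Figure D3:**
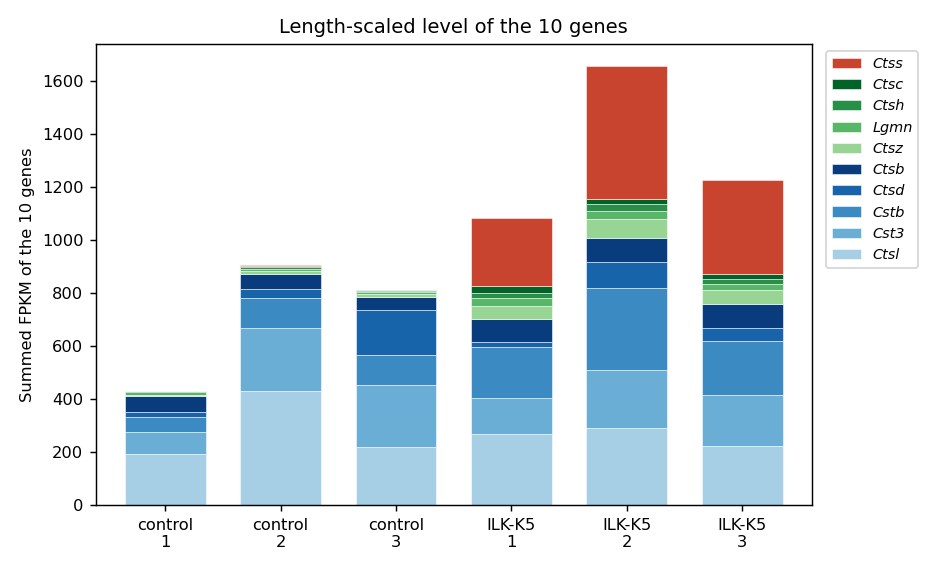
Summed FPKM of the 10 genes in each library, stacked by gene (blue, ubiquitous; green, broad and high in myeloid cells; red, Ctss). The bars reach 433 to 906 in the controls and 1085 to 1657 in ILK-K5, and Ctss, barely visible in the controls, makes up 23.9% to 30.3% of the ILK-K5 bars.

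Ratios between genes of the same library do not depend on the scaling of the library. On the log2 scale of FPKM, Ctss stood at -8.06, -3.75 and -4.80 relative to Ctsb in the controls and at 1.59, 2.46 and 1.95 in ILK-K5. For Ctsc relative to Ctsb the values were -6.42, -5.16 and -4.54 against -1.84, -2.31 and -2.44. For Lgmn relative to Ctsb they were -2.49, -2.93 and -3.04 against -1.56, -1.54 and -2.06. In all these pairs the genotypes did not overlap, and the shift was largest for Ctss.

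Markers of blood-derived cells moved with the same contrast. All 15 genes of a macrophage list were called higher in ILK-K5 (limma), and their summed level was 395 to 627 normalized counts in the controls and 13761 to 18094.5 in ILK-K5. Fcgr1 was at 0 in every control library. All 6 genes of a leukocyte list were called higher too, with sums of 91.2 to 206 against 4714 to 5822. Of 5 genes of Langerhans and dendritic cells, 1 was called higher, and the sums were 82.1 to 106 against 962 to 1625. The highest value was in ILK-K5 library 1, as it was for the fibroblast and T cell markers. Of 6 fibroblast markers, 4 were tested and 1 was called higher (sums of 703 to 779 against 1532 to 2493), and Lum was at 0 in every control library. T cell markers summed to 113 to 160.2 against 251 to 299, with 1 of the 4 tested called higher. Neutrophil (5.08 to 29.9 against 14.8 to 58.4), melanocyte (69.9 to 146 against 71.7 to 204) and endothelial markers (36.5 to 116 against 72.5 to 88.8) had none called among the 1, 3 and 1 tested. None of the 4 mast cell markers was tested, and Cpa3 and Tpsb2 were at 0 in all libraries. In bulk libraries, more cells of a type and more RNA per cell cannot be told apart, and the part of these other cells in the rise of the cathepsins was not tested.
Counted per 100 normalized counts of the summed macrophage markers, Ctss had 0.462, 9.97 and 5.69 in the controls and 21.9, 36.8 and 34.1 in ILK-K5. The same quantity for Ctsz was 16.6, 34.1 and 42.4 in the controls and 4.46, 5.49 and 5.30 in ILK-K5, and for Lgmn it was 37.5, 30.2 and 32.8 against 4.22, 3.93 and 3.62. Ctsh had 22.8, 60.4 and 74.1 against 5.50, 6.15 and 6.86, and Ctsc, with 6.15, 16.1 and 29.2 against 8.68, 5.78 and 6.96, overlapped between the genotypes. Relative to the summed markers, Ctss was thus higher in every ILK-K5 library and Ctsz, Ctsh and Lgmn lower. The control sums did not follow every marker, as control library 1 had the highest control sum (627) but 0 normalized counts of Lyz2. Exons of Itgam, a gene of the list, are shared with another gene over 68.7% of their bases. Whether the control sums track macrophage RNA was not tested, and no source of these transcripts is read from the ratios.

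The libraries numbered 1 were the least like the rest of their genotype, a difference that the column names of the tables also carry without explaining it. In the controls, libraries 2 and 3 had a Spearman correlation of 0.918, beside 0.894 and 0.846 with library 1. In ILK-K5 the values were 0.975 beside 0.903 and 0.921. Mitochondrial reads did not follow this split in the controls. Their share was 23.6%, 27.6% and 11.5% in control libraries 1, 2 and 3 and 24.2%, 14.4% and 16.9% in ILK-K5. For 6 of the 10 genes (Ctsd, Cst3, Cstb, Ctsh, Ctsz and Ctss) replicate 1 was the lowest library of both genotypes, as it was for 25.1% of all genes tested. Within replicates 2 and 3 alone, the log2 fold change was 7.27 (standard error 0.44) for Ctss, 3.30 (0.29) for Ctsc, 2.26 (0.29) for Ctsz, 2.01 (0.32) for Lgmn and 1.71 (0.26) for Ctsh. Cstb stood at 1.12 and Ctsb at 0.83, and Cst3 (-0.19), Ctsd (-0.15) and Ctsl (-0.27) below 0. Replicate 1 has 1 library per genotype, whose log2 difference was 9.79 for Ctss, 5.10 for Ctsc, 1.82 for Cstb and 0.04 for Ctsd.

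Other lysosomal genes, in lists that held no member, were tested in the same limma fit. Of 115 listed genes, 113 were in the tables and 92 had enough counts, of which 9 (9.78%) were called higher and 1 lower, beside 2.93% and 0.599% of all genes tested. The median log2 fold change was 0.40, with 72 of the 92 values above 0, beside a median of 0.005 over all genes. The lists were chosen with earlier results of these data known, so these shares and medians are a description and no excess is read from them. Stfa2 and Tfec, both called higher, had enough counts only through the ILK-K5 libraries. The same held for Ctse, Ctsk and Ctla2b, which were not called and whose control means were below 10 normalized counts. Their log2 fold changes are among the values above 0.
Called genes were unevenly spread over the lists. None of the 6 tested other cathepsins was called, and 1 had an unadjusted p-value under 0.05. It was Ctse, with 1, 2 and 2 reads in the controls and 5, 17 and 79 in ILK-K5 (log2 fold change 2.85, adjusted p = 0.254). Ctsw, below the filter on low counts, had 0, 0 and 4 reads against 9, 26 and 19. For Ctse and Ctsw every ILK-K5 library lay above every control library, on few reads in the controls. Ctsf, the most abundant of the tested other cathepsins in controls by FPKM, had 196, 175 and 328 normalized counts against 118, 188 and 148 (log2 fold change -0.59, adjusted p = 0.631). The serine carboxypeptidase Ctsa had 269, 193 and 534 against 319, 730.4 and 536 (0.72, adjusted p = 0.638). Ctsk, a collagen-degrading protease of osteoclasts, had at most 39 reads in any library (adjusted p = 0.436). Of 9 cathepsins expressed mainly in the placenta, only Ctsq passed the filter on low counts, and it was not called (adjusted p = 0.968).

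Among the other cystatins, 3 of 7 tested genes were called, all higher and all genes of the stefin A cluster on chromosome 16. Stfa3 had 4.82, 69.9 and 51.5 normalized counts in the controls and 896, 2207 and 1547 in ILK-K5 (log2 fold change 5.70, standard error 0.83, adjusted p = 0.00532). Stfa1 had 0.965, 21.3 and 19.6 against 402, 522 and 469.5 (5.58, standard error 0.84, adjusted p = 0.00633). Stfa2 had no read in any control library and 38.7, 145 and 87.7 normalized counts in ILK-K5, at least 28.2-fold higher than the floor of 3 reads per library (adjusted p = 0.00214). It passed the filter on low counts through the ILK-K5 libraries alone. All 3 stayed called whichever library was left out, but the size rested on the low control counts. Without control library 1 the log2 fold change was 4.43 for Stfa1 and 4.57 for Stfa3, and without control library 2 it was 6.18 and 6.38. Stefin A genes are near-identical copies, so that reads may have been divided or misplaced among them, and the values of single genes are uncertain. In contrast to these, cystatin E/M (Cst6), an inhibitor of legumain and Ctsl in epidermis, ranged from 3.86 to 342 normalized counts in the controls and from 22.8 to 298 in ILK-K5 (log2 fold change 0.76, standard error 1.42, adjusted p = 0.920). Cystatin F (Cst7), the inhibitor of immune cells, had at most 5 reads in any library and was below the filter, so that a change was not detectable at this depth.

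Of 32 lysosomal hydrolases, all tested, 5 (15.6%) were called higher and none lower, with a median log2 fold change of 0.67. Psap, the precursor of the saposins that assist glycolipid breakdown, was the most abundant, with 2847, 3175 and 2500.4 normalized counts in the controls and 7290, 7174 and 6760.1 in ILK-K5 (1.32, standard error 0.25, adjusted p = 0.0208). Man2b1, an α-mannosidase, had 70.4, 77.5 and 234 against 411, 820 and 653 (2.46, adjusted p = 0.0245). Gusb, the β-glucuronidase, had 67.5, 158 and 76.9 against 338, 389 and 304 (1.86, adjusted p = 0.0290). The acid phosphatase Acp2 was called as well (1.31, adjusted p = 0.0369), and in these 4 genes the genotypes did not overlap.
The calls of these hydrolases depended on single libraries. Psap was not called without any 1 of the ILK-K5 libraries (adjusted p up to 0.115), and Man2b1 was called only without control library 3 or ILK-K5 library 1 (up to 0.133). Acp2 was called only without control library 3 (up to 0.218), and Gusb only without control library 2 (up to 0.154).

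The structural and transport genes of the lysosome had no calls in the limma fit. Of 16 membrane proteins none was called (1 with an unadjusted p-value under 0.05), and of 16 subunits and partners of the proton pump none, with 3 under that limit. Log2 fold changes were above 0 for 12 of the membrane and 13 of the pump genes. The pump subunit Atp6v1b2 came close to the threshold, with 246, 269 and 285 normalized counts against 556, 585 and 534 (log2 fold change 1.06, adjusted p = 0.0518). Laptm4a, the most abundant membrane gene in controls by FPKM, had 4896, 5678 and 1974 normalized counts against 3535.0, 2633 and 2092 (log2 fold change -0.50, adjusted p = 0.779). Lamp1, a major glycoprotein of the membrane, had 2046, 2156 and 3429.9 normalized counts against 2131, 3020.3 and 2828 (log2 fold change 0.09, adjusted p = 0.960). Lamp2, its relative, had 7198, 15595 and 9904.5 against 6815, 8080.5 and 9436 (-0.37, adjusted p = 0.817). Of 10 genes that sort enzymes to the lysosome none was called (1 under the same limit), and Vps35, a retromer subunit that returns sorting receptors from endosomes, had 536, 1122 and 843 against 658, 706 and 673 (-0.23, adjusted p = 0.883). The pump partner Atp6ap1 had 1934, 2214 and 2018 against 2822, 2709 and 2449 (0.37, adjusted p = 0.662). Over all lists, 14 genes were called higher by DESeq2 when run on whole reads.

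**Figure D4:**
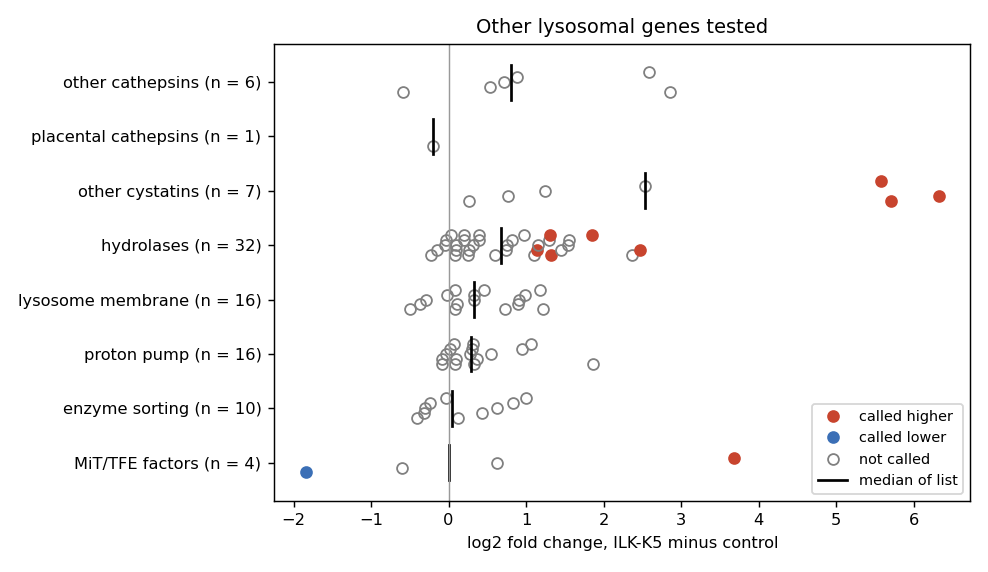
Log2 fold change (ILK-K5 minus control) of the 92 tested lysosomal genes that are no members, by list, with called genes filled (red higher, blue lower) and the median of each list as a black line. The 3 called cystatins lie beyond 5, the 5 called hydrolases reach up to 2.46, and no gene of the membrane, proton pump or sorting lists is filled.

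The MiT/TFE transcription factors, which bind CACGTG and control lysosomal genes, moved in different directions. Mitf had 1136, 868 and 596 normalized counts in the controls and 258, 192 and 254 in ILK-K5, with no overlap (log2 fold change -1.84, standard error 0.31, limma adjusted p = 0.0118). It was not called without control library 2 (adjusted p = 0.0638) or ILK-K5 library 2 (0.0688). Tfec, known from macrophages, had 0, 1 and 2 reads in the controls and 21, 28 and 23 in ILK-K5, at least 7.05-fold higher than the floor (adjusted p = 0.0424, up to 0.245 with a library left out and called only without control library 1). Tfec passed the filter on low counts through the ILK-K5 libraries alone (means of 0.991 and 22.6 normalized counts in control and ILK-K5). Tfeb, with 51.1, 27.4 and 71.8 against 17.1, 53.2 and 30.2 normalized counts, was not called (-0.61, adjusted p = 0.816). Tfe3 had 270, 237 and 245 against 345, 400 and 421, with no overlap, and was not called either (0.63, adjusted p = 0.347). The promoter windows of these factors were not among those with CACGTG, which was present in 0 of their 9 windows, in 6 of 26 of the hydrolases, 5 of 18 of the membrane proteins, 4 of 13 of the proton pump and 5 of 8 of the sorting genes.

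The genes whose profile over the 6 libraries came closest to that of Ctss, by the root mean square difference of centred log2 values, were Srgn (0.45), Fcer1g (0.52) and Lyz2 (0.55). All 3 had at most 25.9 normalized counts in the controls and from 765 upwards in ILK-K5, and Lyz2 also belongs to the macrophage list. Srgn encodes a proteoglycan of secretory granules, Fcer1g a signalling chain of Fc receptors and Lyz2 a lysozyme. Closest to Ctsl were Gm11362 (0.09), Ankrd13c (0.11) and Gm8652 (0.11), and closest to Cst3 were Guk1 (0.09), Zfp84 (0.09) and Gm16477 (0.10). For these 2 members the likeness lay in the spread between libraries, with control library 2 highest for Ctsl and its companions and control library 1 lowest for Cst3 and its companions.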

How the data were processed

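RNA of FACS-sorted bulge SCs was amplified (Ovation RNA-Seq System V2), made into Nextera XT libraries and sequenced in pairs. Per the labels and the study's methods, the authors removed adapters and rRNA reads, aligned to GRCm38 and scaled with DESeq2. The submitters' processing notes name TopHat2 2.0.14, Bowtie2 2.2.4 and DESeq2 1.6.3. The read counter, its strand setting and its handling of shared reads are not given in the sources used here. The deposited normalized counts are a signal of reads divided by 1 size factor per library, and 100% of the values came out as whole reads (tolerance 1e-06). The deposited FPKM values are the same counts times a constant per gene. Tables of the authors' own comparison (means, log2 fold changes, errors, Wald statistics and p-values) were not used.

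Identifiers were matched to GENCODE M21 and NCBI symbols (42107 of 43274). The 16368 genes averaging 10 or more normalized counts across libraries were tested with limma 3.58.1 in R 4.3.3 on log2(normalized count + 1), which understates changes of low genes, with a variance trend, two-sided, and Benjamini-Hochberg adjustment over all genes tested (threshold 0.05). With 3 libraries against 3, an exact permutation test cannot go below 0.1. On simulated data, 100% of 8-fold and 95% of 4-fold changes were recovered among 16368 genes, 200 of them changed. The simulation gave every gene the same dispersion and no shift between replicates, and it changed only genes above a minimum mean. It was not matched to the spread of the real libraries, and the shares do not give the recovery in the real comparison. There Gm2a, with a ratio of means of 4.57, was not called (limma adjusted p = 0.0543). Man2b1, with a ratio of 4.94, was called (0.0245). The members and lists were chosen with earlier results of these data known. Named are all members, called genes of each lysosomal list or else its most abundant gene, Cst6, Cst7, Ctsk, Ctsa, Lamp1, Lamp2, Psap, Tfeb and Tfec, and the 3 genes most like Ctss, Ctsl and Cst3. Ilk and the sort genes were added as checks. Ctse, Ctsw, Ctla2b, Tfe3 and Atp6v1b2 were added outside this rule and are not in the alternative tests of named genes. Csta2 and Csta3 were not matched. Some genes named by this rule are not reported here. In all, 18 alternatives were run, edgeR 4.0.16 and DESeq2 1.42.0 on the recovered reads among them.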

Additional observations from a re-analysis of the deposited data

How the results depend on the processing

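The number of genes called higher was 479 and of genes called lower 98. On the recovered reads edgeR gave 422 and 87 and DESeq2 772 and 262, and a term for replicate 1 against replicates 2 and 3 gave 846 and 286. Leaving out each library in turn gave 222 to 559 higher and 32 to 98 lower. Of the listed lysosomal genes, 9 were called higher, against 14 with DESeq2, 3 in replicates 2 and 3 only and 3 to 8 with a library left out, and the 1 called lower became 0 to 1. The count of members called, which is no test of them, was 5 and ran from 3 to 5 with a library left out, the lowest without ILK-K5 library 2. All 180 alternative fold changes of members moved by less than the spread between replicates, but many could not have done otherwise. The filters on counts and the replicate terms leave a fold change as it is. Leaving out 1 of 3 libraries cannot move it by that spread. Of 302 alternative tests of other named genes, 254 stayed on the same side of the threshold, 46 lost the call, 2 gained it and 0 reversed. The causes were not tested. Low control counts limit the size of the Ctss, Stfa1, Stfa2, Stfa3 and Tfec differences.

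The shared replicate numbers were not taken as a pairing, since the deviations of same-numbered libraries correlated at 0.53, 0.02 and 0.31, and control libraries 2 and 3 correlated best with ILK-K5 libraries 3 and 2. With the replicate block, 848 genes were called higher and 269 lower, 6 members among the former.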
